A study of Mus musculus with 2 samples.

Results

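The loop with the highest score in a list of BRD2 contacts from V6.5 mouse embryonic stem cells is described here with all loops around it. This loop, called the strongest below, spans 18.2 kb on chromosome 15 and has a score of 52000. The region is named for Rbfox2, the gene it was chosen to lie next to. It runs from 76880000 to 77300000 on chromosome 15 of the mm9 genome build. A loop was taken as a member where its left or right edge lay inside these limits, and 15 of the 7732 listed loops met this rule. Of the 15, 1 loop was longer than 5 Mb and was set apart, which left 14. The region was chosen by the score of its strongest loop, the highest of the list, so its scores and their ranks are given as a description, without a test.

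BRD2 belongs to the BET family of proteins, which read acetyl marks on histones through their bromodomains, sit at active regulatory DNA and help RNA polymerase II to start transcribing. ChIA-PET pulls down chromatin with an antibody, in this case one against BRD2, joins DNA ends that lie close together in space and sequences the joined ends. Such a pair of places is listed as a loop, and each end of a loop is called an anchor. Rbfox2 encodes an RNA-binding protein of the Fox family that binds a short motif in introns and thereby regulates which exons are spliced into the mature transcript.

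The data come from V6.5, a mouse embryonic stem cell line of wild-type genotype, untreated and grown with serum and LIF on irradiated fibroblast feeder cells. Replicates 1 and 2 of this single group entered 1 merged list. There is therefore no comparison between conditions, the values have no replicate error, and the sequencing depth is unknown. Whether the feeder cells gave any of the contacts was not tested.

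The loop edges fix the distances between anchors, but not the genes at them. No gene annotation of mm9 was used here, so it was not analysed whether the strongest loop lies upstream of Rbfox2 or touches its promoter. In the RefSeq table of another build, GRCm38.p6, used only for the order of genes, the protein-coding genes next to Rbfox2 were Apol6, Mb and 1110038F14Rik on the side of lower coordinates. On the side of higher coordinates they were Apol7a, Apol9a and Apol7b. Mb encodes myoglobin, the oxygen-binding protein of muscle, and the Apol genes encode members of the apolipoprotein L family. Which of these genes, if any, lie at an anchor was not analysed either.

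At the centre of the region, 3 anchors were all joined to each other and formed a closed triangle 29.8 kb long. The left anchor was listed from 77169056 to 77169188 and the middle anchor from 77186944 to 77187248. The right anchor was known only by its right edge, 77198834. The strongest loop joined the left and the middle anchor over 18.2 kb with a score of 52000. The loop between the left and the right anchor was 29.8 kb long and had a score of 15000. The loop between the middle and the right anchor was 11.9 kb long and had a score of 10000. All 3 were among the 153 loops of the list with a score of at least 10000.

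The score was concentrated in this triangle. The 14 loops had a summed score of 100000, of which the strongest loop held 52.0% and the 3 loops of the triangle together 77.0%. The other 11 loops shared a score of 23000. Of these, 10 had a score of 2000, the lowest of the list, and 1 had a score of 3000. Within the triangle, the outer loop, although the longest of the 3, scored above the inner loop on the right and below the one on the left. An outer loop that scored above at least 1 of its inner loops was found in 427 of the 990 closed triangles of the list, or 43.1%.

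**Figure D1:**
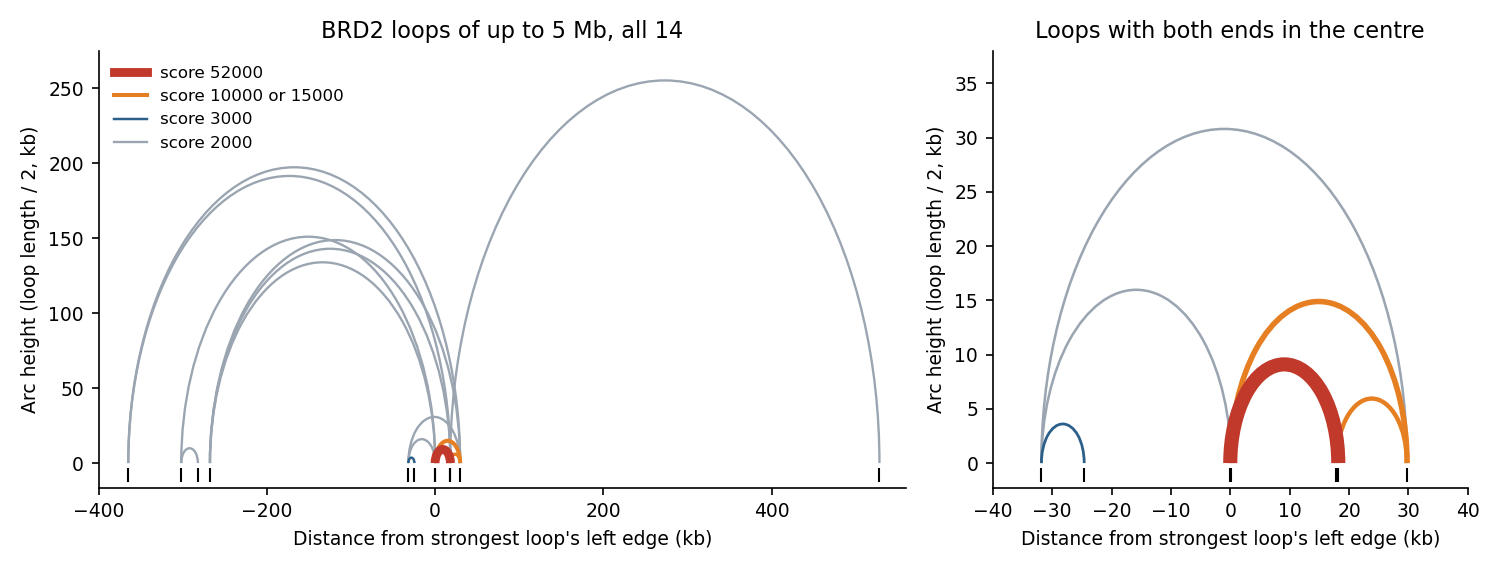
The 14 loops as arcs between their outer edges, by distance in kb from the left edge of the strongest loop, with line width and colour by score and ticks at the listed edges. The left panel shows all 14 and the right panel the 6 loops with both ends in the central 61.6 kb; the strongest loop (score 52000) sits under long arcs that all have a score of 2000.

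All 7 loops of the region that were longer than 100 kb had an end on the triangle. Of the 14 loops, 12 had an end on a triangle anchor, and 9 of these joined it to an anchor outside the triangle. The outside anchor starting at 76901357 was joined to all 3 triangle anchors, over 268 kb to the left, 286 kb to the middle and 297 kb to the right anchor. The anchor starting at 76804253 was joined to the middle anchor over 383 kb and to the right anchor over 395 kb, with no listed loop to the left anchor. The anchor starting at 76867217 was joined to the left anchor alone, over 302 kb.

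Each of these 6 upstream contacts had a score of 2000. From here on, upstream and downstream mean lower and higher coordinates, not the direction in which Rbfox2 is transcribed. The same score was held by the only loop of up to 5 Mb that led downstream from the triangle, from the middle anchor over 510.4 kb to the anchor at 77696976 to 77697341. With equal scores at the lowest listed value, the long contacts could not be ranked, and a pair that is missing from the list cannot be called absent. Of the 21 possible pairs between the 7 outside anchors and the triangle, 9 were listed.

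Closer to the triangle lay a pair of anchors on its upstream side. The anchor starting at 77137247 was joined to the left triangle anchor over 31.9 kb and to the right one over 61.6 kb, each with a score of 2000, and no loop to the middle anchor was listed. It was also joined to the anchor ending at 77144456 by the shortest loop of the region, 7.21 kb long, with a score of 3000. That anchor had no other partner. The remaining loop of the 14 joined 76867217 to 76887043 over 19.8 kb with a score of 2000 and did not touch the triangle.

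**Figure D2:**
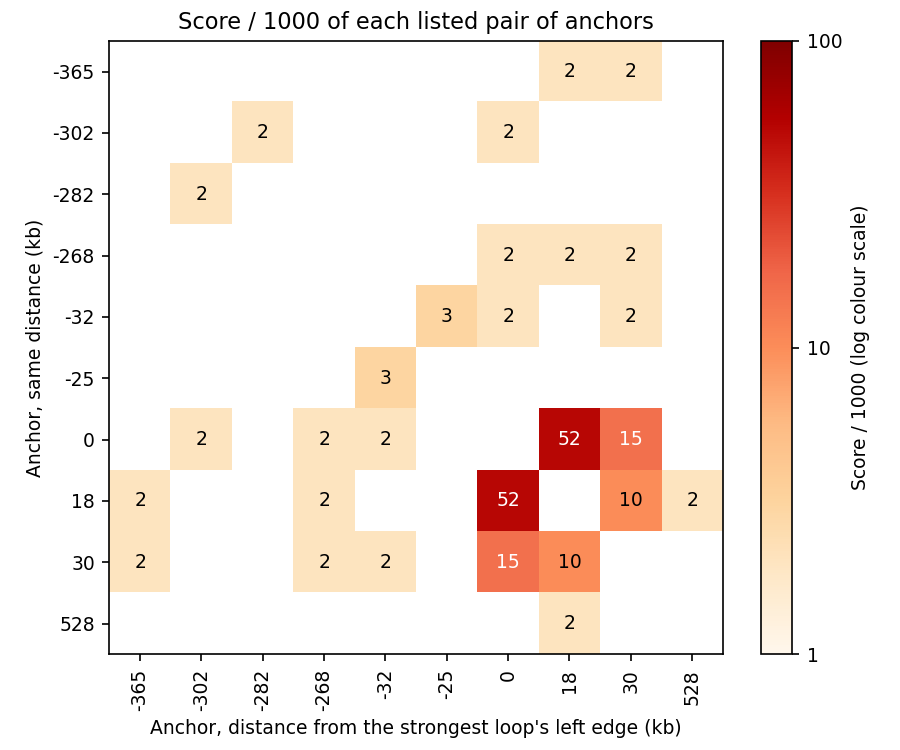
The score divided by 1000 of each listed pair among the 10 anchors of the 14 loops, each anchor named on both axes by its distance in kb from the left edge of the strongest loop. Blank squares are pairs without a listed loop; the 3 triangle anchors (0, 18 and 30 kb) hold the values 52, 15 and 10, and the anchor at -268 kb has a value of 2 with each of them.

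Loop lengths in the region fell into 2 sets. There were 7 loops of 7.21 to 61.6 kb and 7 of 268 to 510.4 kb, and none in between. Loops longer than 100 kb were thus 7 of 14 in the region, a share with an exact Clopper-Pearson 95% interval of 23.0 to 77.0% (counting error only), against 17.1% of the 7570 loops of up to 5 Mb in the whole list. The limit of 100 kb was set after the lengths were known. Loops of a region share anchors and are not independent, and the difference was not tested. A loop with either edge inside was a member, a rule that admits long loops more readily than short ones. The share of the whole list is therefore not a like background. The share also depends on which loops count: among the 9 loops with both edges inside the region it was 33.3%, and with a minimum score of 3000 it was 0.

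All 7 long loops of the region had the lowest score, against 73.7% of the 1291 loops of this length in the whole list. The short loops of the region spanned a wider range. Among loops of 10 to 20 kb, the 3 of the region ranged from 2000 to 52000, against a median of 3000 and an upper quartile of 4000 over the 1696 of the list. The score of 52000 is the one by which the region was chosen, so the upper end of this range was fixed in advance. Among loops of 20 to 50 kb, the pair in the region had scores of 2000 and 15000, against a median of 2000 and an upper quartile of 3000 over 1998 listed loops.

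**Figure D3:**
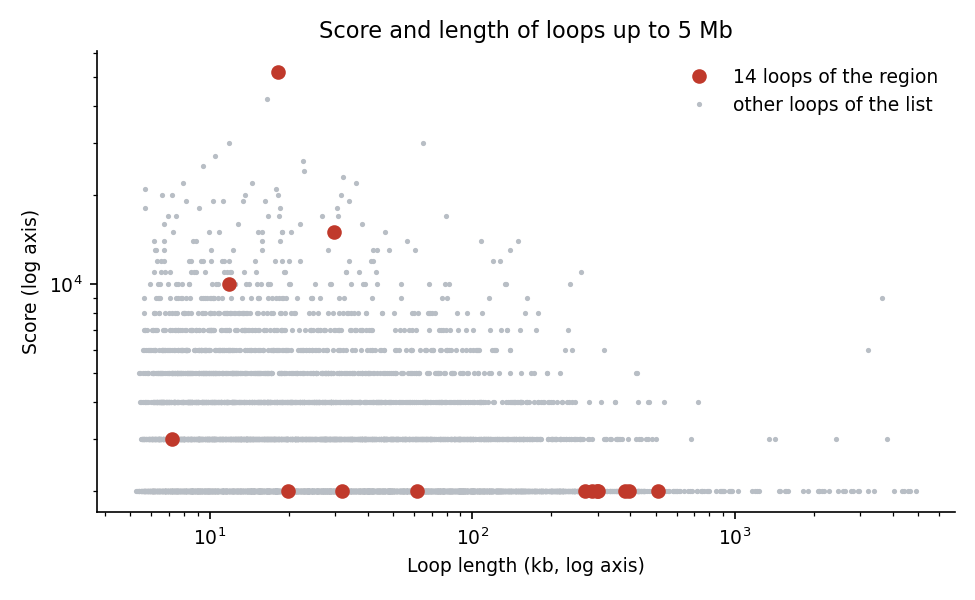
Score against length in kb, both on log axes, for the 14 loops of the region (red) and the other loops of up to 5 Mb in the list (grey). Of the region's loops, 3 stand at scores of 10000 or more and lengths under 30 kb, and the 7 longer than 100 kb lie on the lowest listed score of 2000.

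The triangle anchors had more partners than most anchors of the list. The left and the middle anchor each had 3 partners upstream and 2 downstream. The right anchor had 5 partners upstream and none downstream. Part of this split is fixed by position in the triangle. The other 2 triangle anchors lie downstream of the left anchor and upstream of the right one. Outside the triangle, by loops of up to 5 Mb, the left and the right anchor had partners upstream only. The middle anchor also had 1 downstream. In the whole list an anchor had a median of 1 partner, and 2.59% of the 9269 anchors with a loop of up to 5 Mb had 5 or more. Beside the next 4 loops by score, the number was not high. The 2 anchors of the strongest loop had 8 other loops, against 16, 5, 8 and 13 at the anchors of those loops. Summed scores were 73000 at the left anchor, 68000 at the middle and 31000 at the right, against a median of 3000 over these anchors. By summed score, which includes the loop that the region was chosen for, the left anchor ranked at 5, the middle at 7 and the right at 53.

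The width of an anchor is known where loops leave it in both directions. The left anchor was 132 bp wide and the middle anchor 304 bp, against a median of 349.5 bp over the 2084 anchors of the list with both edges known. Of these anchors, 9.4% were narrower than the left anchor and 43.0% narrower than the middle one. Of the pair joined by the strongest loop, the left anchor was thus the narrower.

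Wide stretches without an anchor of a loop of up to 5 Mb lay on both sides of the centre. Anchors that had only longer loops were not counted in these gaps. Upstream, no such anchor of loops up to 5 Mb was listed between 76901357 and 77137247, a gap of 236 kb, and 6 loops of up to 5 Mb crossed it. Downstream, none was listed between 77198834 and 77688042, a gap of 489 kb that 1 loop of up to 5 Mb crossed. The median gap between neighbouring anchors was 27.4 kb over 9249 gaps. Gaps at least as wide as the upstream one made up 14.3% of them, and gaps at least as wide as the downstream one 9.47%. Between the gaps, 5 anchors lay within 61.6 kb.

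On the upstream side, the loop from 76867217 to 76887043, with a score of 2000, crossed the limit of the region. Its left edge lay outside and its right edge inside. Just outside lay the loop from 76818426 to 76830009, 11.6 kb long with a score of 3000, which shared no anchor with the region. On the downstream side, the outermost edge inside was that of the right triangle anchor at 77198834. The next loop of up to 5 Mb beyond it ran from 77688042 to 77697341, with a length of 9.30 kb and a score of 9000.

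Through shared anchors, the strongest loop belonged to a connected group of 15 anchors and 21 loops that spanned 932 kb. It held 8 closed triangles. Of the 2686 groups of the list, 23 had more anchors, and the median was 2 anchors. Of its 21 loops, 6 would each split the group if removed, among them the downstream loop of 510.4 kb. Without that loop, it fell into an upstream part of 9 anchors and 13 loops around the triangle and a downstream part of 6 anchors and 7 loops, whose highest score was 9000. With a minimum score of 3000, only the 3 triangle anchors stayed in the group.

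The triangle and the anchor starting at 76901357 formed a set of 4 anchors that were all joined to each other. The list held 138 such sets in 50 groups, and their median span was 66.8 kb. The set here spanned 297 kb, and 2 of the 138 were wider, the widest at 471 kb. Sets in the same group share anchors, so the 138 are not independent of each other.

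Among the strongest loops of the list, the one of the region stood first, which is how the region was chosen. Its score of 52000 was 1.24 times that of the next, the loop from 88383662 to 88400259 on chromosome 1 with 42000. With no replicate values and no stated unit of the score, the error of this ratio is unknown. Among the 892 loops of 15 to 22 kb, the scores of these loops were followed by one of 21000, and the median was 2000.

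The 5 strongest loops differed in how much of the score at their anchors they held. The loop of the region held 58.4% of the summed score of all loops at its anchors, where 8 other loops had a score of 37000 together. Its score was 3.47 times that of the next loop there. The loop on chromosome 1 held 25.6%, among 16 other loops with a summed score of 122000. The loop from 32018323 to 32030144 on chromosome 2 held 62.5%, the one from 133312455 to 133377250 on chromosome 4 held 42.3% and the one from 118885698 to 118896164 on chromosome 5 held 35.5%.

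The same anchors also differed in long contacts. Loops longer than 100 kb numbered 5 at the anchors of the loop of the region, against 3 on chromosome 1, none on chromosome 2, 4 on chromosome 4 and 3 on chromosome 5. The groups had 15 anchors and 8 closed triangles for the loop of the region, against 18 anchors and 28 triangles on chromosome 1 and 5 anchors and 3 triangles on chromosome 2. The group on chromosome 4 had 15 anchors and 4 triangles, and the group on chromosome 5 had 13 anchors and 22 triangles. With 1 merged list, these differences have no replicate check.

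**Figure D4:**
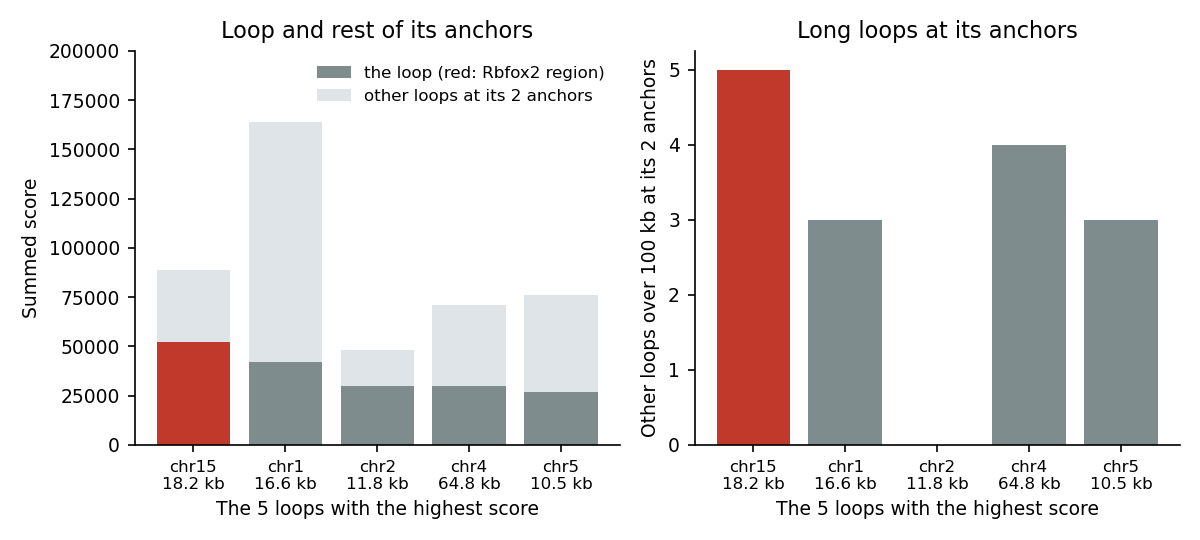
Left, the summed score at the anchors of each of the 5 strongest loops, split into the loop itself (lower part, red for the region of Rbfox2) and the other loops at its anchors (light grey). Right, the number of other loops over 100 kb at those anchors, which was 5 for the region and 0 to 4 for the other strongest loops.

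Long contacts were then counted for every closed triangle that spanned at most 50 kb. The triangle of the strongest loop had 7 long loops, to 4 distant anchors that each lay more than 100 kb from it. Among all 502 such triangles, 282 had no distant anchor and 43.8% had at least 1. At least 4 distant anchors were listed for 0.398% of them, this triangle and 1 from 37042667 to 37067243 on chromosome 1, which had 4 long loops. By number of long loops the triangle of the strongest loop stood first, and the next had 5. Among the 26 triangles with a summed score of 30000 or more, the median was 2 long loops. The rank depends on the settings. With triangles of up to 100 kb counted, 1 of 787 had more long loops, 8, and another had as many. With a minimum score of 3000, the triangle of the strongest loop had none and 32 of 162 had more. Triangles can share anchors, so the 502 are not independent of each other. A distant anchor joined to several triangle anchors gave several long loops. These limits were set after the loops of the region were known, and no test was made.

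**Figure D5:**
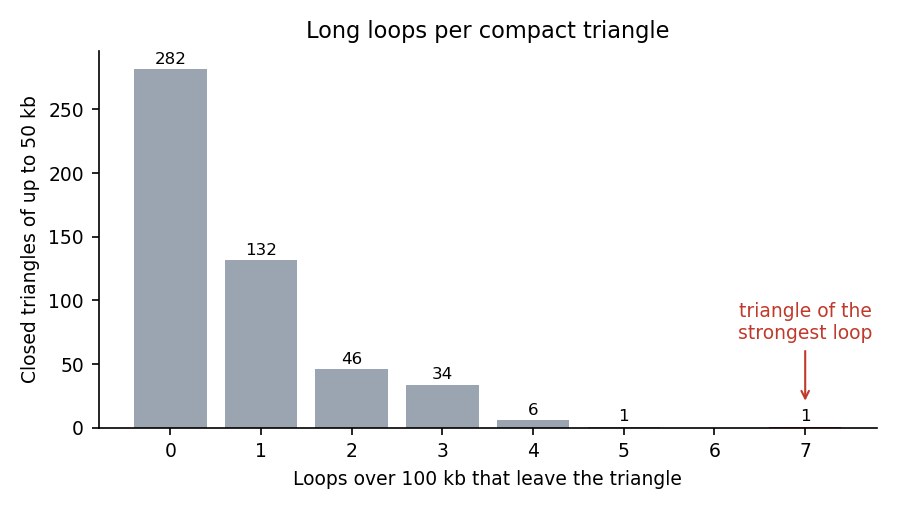
Number of closed triangles of up to 50 kb (vertical axis, counts above the bars) by the number of loops over 100 kb that leave them (horizontal axis), over 502 triangles. The triangle of the strongest loop is marked at 7 long loops; the others had 0 to 5.

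The loop set apart for its length ran from 77169056 to 89218693 on chromosome 15, over 12.05 Mb, with a score of 2000. It joined the left triangle anchor to an anchor from 89218397 to 89218693. That distant anchor had 2 loops of its own, 14.2 and 42.3 kb long, each with a score of 2000. Over the whole list, 162 loops were longer than 5 Mb.

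Windows as wide as the region, 420 kb, were laid along each chromosome from its first listed edge, and 2022 of them held a loop of up to 5 Mb. A summed score of at least 100000, as in the region, was found in 10 windows, or 0.495%, and the median was 7000. At least 14 loops were found in 5.34% of windows, and at least 7 loops longer than 100 kb in 0.742%. The region was placed around its strongest loop and the windows were not, so these shares describe the list only.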

How the data were processed

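BRD2 ChIA-PET in untreated V6.5 cells was deposited as 1 list of high-confidence interactions of the merged dataset, per the file header. Tools named in the submitters' processing notes are Bowtie and cutadapt, and the build is mm9. The interaction caller, its thresholds and the depth were not given in the sources used here. Each loop has a deposited score, the authors' value, with no unit stated. All scores are whole multiples of 1000. Positions are as deposited.

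The first start and end columns were read as the outer edges of a loop, an inference from the values, since the second pair repeats the start. Edges closer than 5000 bp formed 1 anchor. Anchors and their widths were taken from the edges of all listed loops. Loops over 5 Mb were then left out of partners, summed scores, groups and triangles. Lengths are between outer edges. The loops and anchors named are all those of the region, and the next 4 loops by score. The region, the limits and the lists were chosen with earlier results of these data known. No test was made. Forming anchors from edges and counting loops, triangles and sets of 4 were checked on simulated loops. The simulated anchors lay farther apart than 5000 bp, so wrongly joined neighbours could not occur there. The other steps were not simulated. Python 3.11.15, pandas 2.3.3, scipy 1.17.1 and networkx 3.6.1 were used.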

Additional observations from a re-analysis of the deposited data

How the results depend on the processing

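With a minimum score of 3000, the region kept 4 loops of 15.0 kb median length and 5 anchors. The group of the strongest loop then had 3 anchors and 1 closed triangle, the partner counts of the 2 anchors of the strongest loop summed to 4 instead of 10 (shared partners counted at each), the strongest loop held 65.0% of the region's score instead of 52.0%, and there were 0 long loops at the triangle and 0% in the region. With both edges inside the region, 9 loops remained, with a median length of 31.9 kb instead of 165 kb. That median lies between the short and the long loops and moved with all 4 settings tried, the others giving 61.6 kb with the region widened by 100 kb and 268 kb with the loop over 5 Mb kept. Without the longest loop the group had 9 anchors, and with edges joined within 10000 bp it had 10, against 15. The share of long loops was 33.3% with both edges inside and 46.7% with the region widened. The exact interval against which shares were set treats loops as independent, which they are not, so a share inside it is not shown to be stable. The 20 of 34 alternative values not counted as moved were counts, sums and shares that lay within 1.5 times of the main value (limit included) or inside that interval. The score share of 65.0% was counted as moved although it lay within 1.5 times of 52.0%, so the limit of 1.5 did not decide it. Each cause lies in the construction of the setting, which drops or adds loops or merges anchors. Alternatives for long loops, compact triangles and the longest loop were chosen after seeing the data. Leaving out a replicate was not run. No paired analysis was possible because replicates were merged into 1 list of a single group. Depth is unknown, so a contact that is not listed cannot be called absent, and 57.0% of loops up to 5 Mb sit at the lowest score.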
